A study of Mus musculus with 12 samples.

Results

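The 42 genes described here are immediate early and early feedback genes other than the NR4A, EGR and AP-1 families, chosen by name as a list and found by gene symbol among the 20792 genes listed in every library. All 42 were listed, each symbol as 1 gene. These genes were chosen with earlier results of these data known, so their comparison with all genes is not independent of the data. They were measured by bulk RNA-seq in hematopoietic stem and progenitor cells (HSPCs) that had been sorted from mouse bone marrow by the gate Lin-CD127-c-kit+Sca-1+, in 4 groups of 3 libraries. Male wild-type mice, 6 weeks old at the start, received for 8 weeks a normal diet (ND, chow with 0.5% NaCl) or a high-salt diet (HSD, chow with 8% NaCl and salt in the drinking water). The ND ICH and HSD ICH groups had the same diets, then an intracerebral hemorrhage (ICH) made by injecting the animal's own blood into the brain, and were sampled at day 7, with all animals back on ND after the injury. Between HSD ICH and HSD, ICH therefore cannot be told apart from the return to ND. No group with surgery alone was among the 4, so the ICH comparisons include the operation. The paper describes the ND and HSD libraries as biological replicates, each pooled from 3 animals. Pooling in the ICH groups is not given in the sources used here. Nothing states that libraries of a group came from separate experiments, so the p-values measure the spread between these libraries, which may be partly technical.

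Immediate early genes are transcribed within minutes of a stimulus from promoters that are already poised, without new protein synthesis, through kinases that activate factors such as SRF, CREB and NF-kB. Many of their products then end the response: ZFP36 proteins bind AU-rich mRNAs and recruit deadenylases, DUSP phosphatases switch off MAP kinases, NFKBIA and TNFAIP3 restrain NF-kB, and SOCS3 restrains cytokine receptors. In blood stem and progenitor cells several of these genes are also linked to quiescence, survival and lineage choice, among them Btg2, Mcl1, Klf2, Myc and the C/EBP factors.

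Levels are given as CPM, the deposited reads of a gene scaled to library size, where 1 read was worth 0.0361 to 0.106 CPM depending on the library. The libraries held 8678304 to 27491973 reads in listed genes as recovered from the CPM, with HSD ICH replicate 3 the deepest. HSPC markers such as Kit, Cd34 and Flt3 were present in every library, although Ly6a, which encodes Sca-1, was at 2.42 to 6.72 CPM. By macrophage or HSPC markers, 3 libraries stood apart. Summed macrophage markers reached 513 CPM in ND replicate 1 and 939 in HSD replicate 2, when every other library had 60.6 to 170. HSPC markers summed to 1016 CPM in HSD ICH replicate 3 against 1505 to 1862 CPM elsewhere. Between 1393 and 1755 genes had 0 reads in each library without ICH, against 2 to 29 in each ICH library, so ICH and the way the gene list was made cannot be told apart in any ICH comparison. In bulk samples, fewer cells of a type and less RNA per cell cannot be told apart.

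Most of the 42 genes were highest in ND and lowest in HSD ICH. The highest of the 4 group means was in ND for 30 members, and the lowest was in HSD ICH for 30, with both true of 26. The order of the group means was not counted over all genes, so no background share stands beside these counts. Per kilobase of annotated exon, the highest levels in ND were those of Zfp36l2 (189 CPM per kb), Myc (98.6), Ier2 (48.0) and Mcl1 (47.4), and the lowest were those of Arc (0.210) and Errfi1 (0.215). Of the members, 29 had a mean of at least 100 reads per library. The other 13 had fewer, from 8.42 reads for Arc, which is best known as a neuronal gene, to 96.8 for Socs3, and their values are less precise. Exon bases of 10 members overlapped an annotated antisense gene, most of all in Zfp36l1 (1672 bases), Cebpd (562) and Dusp5 (547), and whether reads were counted by strand is not given in the sources used here.

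**Figure D1:**
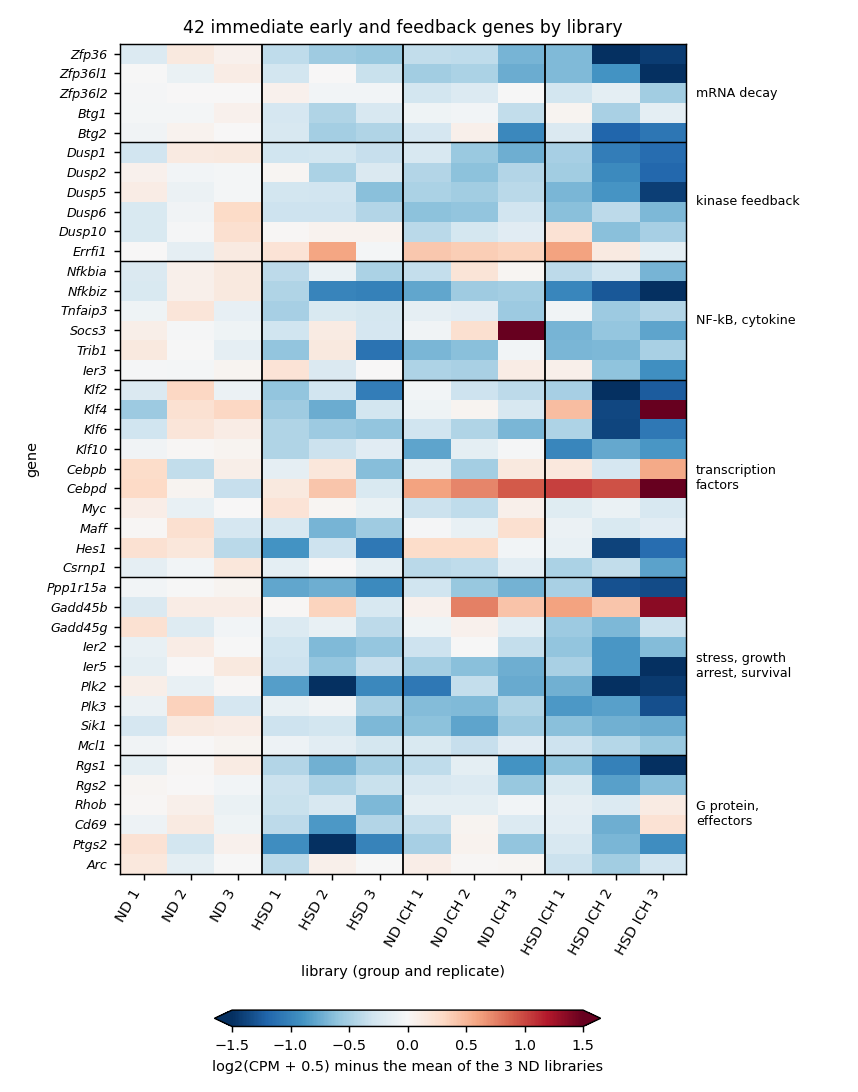
Heat map of log2(CPM + 0.5) minus the mean of the 3 ND libraries, for 42 genes in rows (grouped by role) and 12 libraries in columns; blue is lower and red is higher than ND. The median over the members is −0.28 to −0.41 in the HSD libraries, −0.23 to −0.31 in the ND ICH libraries and −0.43 to −0.72 in the HSD ICH libraries.

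The replicates of a group were close for most members. The median coefficient of variation over the 42 genes was 11.7% in ND, 14.6% in HSD, 13.5% in ND ICH and 25.8% in HSD ICH. The wider spread of HSD ICH came with replicate 1, which was the highest of its group in 25 members. Relative to the ND mean, the median member was −0.43 in HSD ICH replicate 1 and −0.71 and −0.72 in replicates 2 and 3, on the log2(CPM + 0.5) scale. All 9 libraries outside ND had a negative median, and between 30 and 40 of the 42 members were below the ND mean in each of them. The same counts were not made over all genes.

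The first comparison asked how HSD alone altered HSPCs. Without ICH, most of these genes were lower in HSD than in ND and none was higher. By limma on log2(CPM + 0.5), with an unadjusted p under 0.05 as the threshold, 25 of the 41 members tested were lower and 0 higher (Arc had too few reads), against 3.28% lower and 3.65% higher of all 16787 genes tested. edgeR's quasi-likelihood test gave 25 lower and 0 higher, and DESeq2 24 and 0. Of all genes, 3.82% were lower and 2.99% higher by edgeR, and 2.70% and 2.06% by DESeq2. These contrasts with all genes are not independent of the data, because the members were chosen with earlier results known. The median log2 fold change of the members was −0.35, against 0.02 over all genes tested, with 36 members negative and 5 positive. For 21 members every HSD library was below every ND library, against 5.75% of all genes. Only 1 member, Ppp1r15a, passed an adjusted p under 0.05, as 0.0655% of all genes did in the lower direction. Hes1 and Ptgs2, counted among the 25, reached 10 reads in ND libraries alone, and without them 23 of 39 were lower. Mature neutrophil markers also leaned lower in HSD, with negative fold changes in 9 of 10 and a median of −0.46. Of these, 2 had an unadjusted p under 0.05. Their summed levels were 37.0, 50.8 and 103 CPM in the ND libraries and 43.5, 38.3 and 38.1 CPM in the HSD libraries. The highest sum was that of ND replicate 3, and ND replicate 1 was below every HSD library. The part of these markers in the members' differences was not tested.

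Ppp1r15a, which directs a phosphatase to eIF2alpha and so restores translation after stress, was at 41.7, 42.8 and 44.0 CPM in the ND libraries and 24.8, 25.6 and 21.9 CPM in the HSD libraries. The groups were far apart relative to their spread, and the gene fell in HSD (log2 fold change −0.82, SE 0.0922, adjusted p = 0.00526, limma). The adjusted p stayed between 0.0042 and 0.0398 when each library was left out in turn, and it did not pass in the fit of all 12 libraries.

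The other stress, growth arrest and survival regulators included 5 more members that were lower at an unadjusted p under 0.05. Ier2, a small nuclear protein of the immediate early response, was at 67.7, 78.8 and 72.9 CPM in ND and 59.0, 45.8 and 48.5 CPM in HSD (log2 fold change −0.52, SE 0.102). Plk2, a polo-like kinase that responds to growth factors and stress, was at 3.85, 3.29 and 3.62 CPM in ND and 1.81, 0.804 and 1.58 CPM in HSD (−1.14, SE 0.253). In both genes no HSD library reached the lowest ND library. Ier5 (−0.41), Sik1, a salt-inducible kinase that acts on CREB coactivators (−0.42), and Mcl1, a BCL2-family survival protein (−0.16), were lower with adjusted p-values from 0.479 to 0.701 by limma. Plk3 (−0.22), Gadd45g (−0.23) and Gadd45b (0.04) did not pass at an unadjusted p under 0.05.

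Among mRNA decay and antiproliferative factors, the diet difference lay in Zfp36, Btg1 and Btg2 but not in the most abundant member. Zfp36, which encodes tristetraprolin, was at 73.7, 93.9 and 88.7 CPM in ND and 65.2, 58.5 and 57.2 CPM in HSD (log2 fold change −0.49, SE 0.0977, adjusted p = 0.128, limma). Btg2 was at 28.3, 30.4 and 29.4 CPM in ND and 24.8, 20.4 and 21.2 CPM in HSD (−0.40, SE 0.103). Btg1 averaged 47.1 ± 1.93 CPM in ND and 37.9 ± 3.08 CPM in HSD (SD, n = 3). The groups did not overlap for these 3 genes. By contrast Zfp36l2 was at 659, 673 and 672 CPM in ND and 700.5, 649.5 and 649.2 CPM in HSD, a log2 difference of 0.00 with a 95% interval from −0.17 to 0.16. Zfp36l1 (−0.20) did not pass.

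Of the 6 feedback inhibitors of MAP kinases and receptor kinases, 3 were lower at an unadjusted p under 0.05. Dusp5, a nuclear phosphatase of ERK, was at 20.9, 18.2 and 19.0 CPM in ND and 15.9, 15.8 and 12.4 CPM in HSD (log2 fold change −0.39, SE 0.127). Dusp6, the cytoplasmic ERK phosphatase, was at 38.6, 43.5 and 55.1 CPM in ND and 36.4, 36.5 and 33.2 CPM in HSD (−0.35, SE 0.119). Dusp1 was at 61.7, 82.6 and 83.4 CPM in ND and 61.0, 62.1 and 59.2 CPM in HSD (−0.31, SE 0.108), and ND replicate 1, one of the libraries high in macrophage markers, was within the HSD range. Dusp2 (−0.22), Dusp10 (0.04) and Errfi1, an inhibitor of EGF receptor kinases (0.25), did not pass.

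Of the NF-kB, cytokine and survival feedback genes, Nfkbiz showed the widest separation. Nfkbiz, an atypical nuclear I-kappa-B protein, was at 51.4, 63.3 and 66.9 CPM in ND and 44.0, 30.0 and 29.5 CPM in HSD (log2 fold change −0.82, SE 0.146, adjusted p = 0.0769, limma). Tnfaip3 (−0.33) and Nfkbia (−0.32) were lower at an unadjusted p under 0.05. In Nfkbia the groups overlapped, because HSD replicate 2 at 26.4 CPM was above ND replicate 1 at 24.1 CPM. Trib1 (−0.52), Socs3 (−0.14) and Ier3 (0.00) did not pass.

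Among the 10 transcription factors, Klf2, Klf6, Klf10 and Maff were lower. Klf6 was at 46.1, 64.5 and 61.6 CPM in ND and 41.4, 38.9 and 37.6 CPM in HSD (log2 fold change −0.53, SE 0.117). Klf10, a TGF-beta response gene, averaged 51.6 ± 1.75 CPM in ND and 41.5 ± 4.11 CPM in HSD (−0.31, SE 0.0898). Klf2, known for lymphocyte quiescence, was at 9.73, 14.2 and 10.7 CPM in ND and 7.36, 9.24 and 5.28 CPM in HSD (−0.64, SE 0.203). In these 3 genes no HSD library reached the ND range. Maff (−0.49) and Hes1, a Notch target (−0.76), had an unadjusted p under 0.05 with overlapping groups, and Hes1 was tested only because its ND libraries had enough reads (10 to 18, against 2 to 7 in HSD). Klf4 (−0.52), Cebpb (−0.20), Csrnp1 (−0.09), Myc (0.05) and Cebpd (0.11) did not pass. For Myc, at 247 to 288 CPM in ND and 249 to 309 CPM in HSD, the 95% interval of the log2 difference ran from −0.15 to 0.25.

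Of the G protein signaling, cytoskeleton and effector genes, Rgs1, Rgs2, Rhob and Cd69 were lower. Rgs1, which dampens chemokine receptor signaling, was at 65.4, 73.4 and 78.7 CPM in ND and 53.1, 43.6 and 50.5 CPM in HSD (log2 fold change −0.56, SE 0.0971, adjusted p = 0.0769, limma). Its relative Rgs2 was at 40.6, 40.0 and 38.7 CPM in ND and 31.7, 28.7 and 31.4 CPM in HSD (−0.37, SE 0.0851). Cd69, a lectin that marks recently activated lymphocytes and retains cells in tissue, was at 19.6, 22.8 and 19.7 CPM in ND and 15.6, 11.2 and 15.1 CPM in HSD (−0.56, SE 0.140). In all 3 genes the groups did not overlap. Rhob, a small GTPase, was at 47.5, 49.4 and 43.6 CPM in ND and 36.9, 39.5 and 29.2 CPM in HSD (−0.42, SE 0.112). Ptgs2, the inducible cyclooxygenase, had 20, 13 and 19 reads in ND and 6, 0 and 3 in HSD (log2 fold change −1.21, SE 0.313) and was tested only because its ND libraries had enough reads.

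The diet difference was as frequent without ND replicate 1 and HSD replicate 2, the libraries high in macrophage markers. Without both, 25 of 39 tested members were lower and 0 higher by the same unadjusted threshold, and 10 were past an adjusted p under 0.05 by limma: Ppp1r15a, Klf6, Zfp36, Rgs1, Nfkbiz, Sik1, Dusp1, Ier2, Nfkbia and Klf2. Of all genes, 4.40% were lower and 6.64% higher in that fit, and the adjusted calls over all genes rose from 13 to 91. With each library left out in turn, 17 to 25 members were lower and 0 higher. The shares over all genes were 1.91% to 3.81% lower and 1.90% to 5.36% higher. The count of 1 adjusted call became 3 without ND replicate 1 and 2 without HSD replicate 1, 6 with DESeq2 and 0 in the fit of all 12 libraries. Over all genes these fits called 12, 10, 65 and 0.

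**Figure D2:**
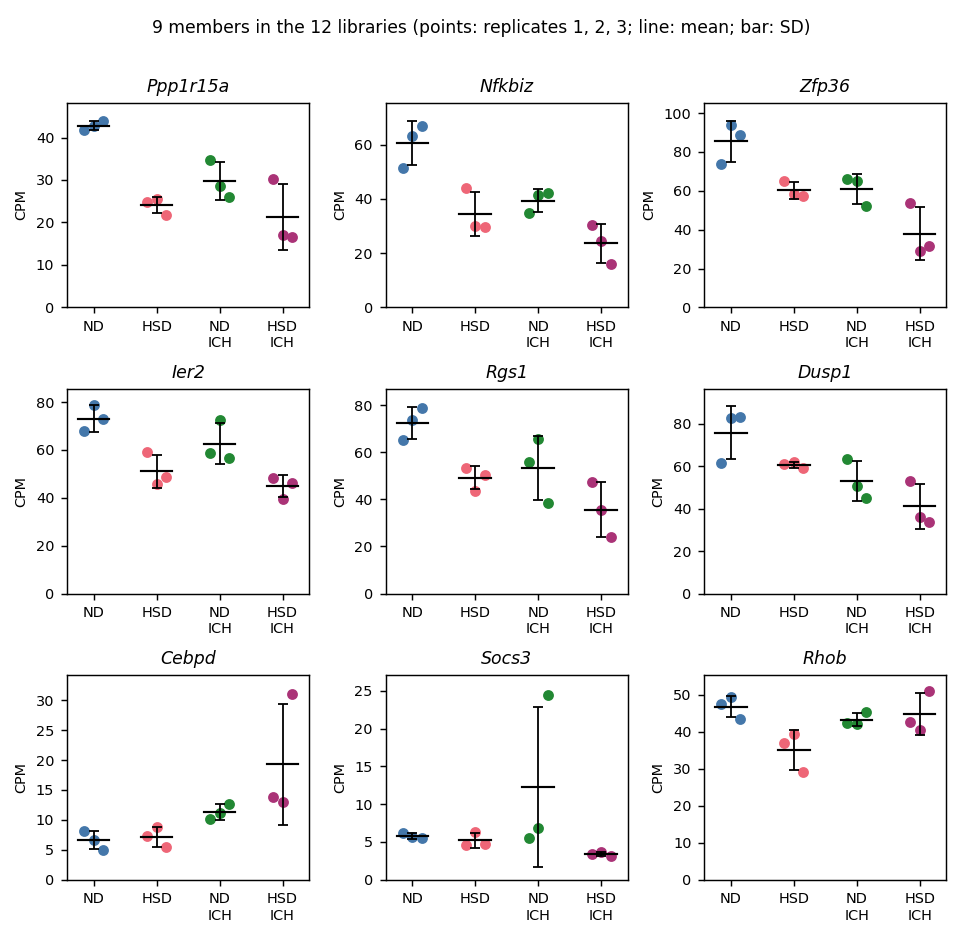
CPM of 9 members in each of the 12 libraries (points), with the group mean (line) and SD (bar, n = 3 per group) on axes that include 0. Ppp1r15a, Nfkbiz, Zfp36, Ier2 and Rgs1 are lower in every HSD library than in every ND library; Cebpd is higher in every ICH library than in every library without ICH, and Socs3 is high only in ND ICH replicate 3.

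RefSeq promoter windows (GRCm38.p6, 250 bases before to 50 after a start site) matched 30 of the 42 members, and Nfkbiz, Rgs1 and Ier2 were not among them. The full cAMP response element TGACGTCA, added to the motif search after the data had been seen, occurred in 6 of the 30: Ppp1r15a, Plk2, Dusp1, Btg2, Errfi1 and Maff. Of all genes with a window, 2.03% had it. Its core TGACG, which the full element contains, was found on either strand in 18 of the 30 members and in 23.0% of all genes. The CArG box bound by SRF was found in Zfp36 and Dusp5 (1.81% of all genes), the AP-1 motif TGANTCA in 3 members (8.97%), the kappaB site in 4 (5.14%) and TATAAA in 9 (15.7%), each on both strands. Of the 6 genes with the full element, 5 were lower in HSD without ICH at an unadjusted p under 0.05 and Errfi1 was not, while 18 of the 30 members with a window were lower. The 200 bases before the start site are shown for 5 of the lower genes, 5′ to 3′ on the strand of the gene, to show where these letters lie. Capitals mark the full cAMP response element, or in Zfp36 the CArG box.
Ppp1r15a (GRCm38.p6, minus strand, chr7:45526269-45526468): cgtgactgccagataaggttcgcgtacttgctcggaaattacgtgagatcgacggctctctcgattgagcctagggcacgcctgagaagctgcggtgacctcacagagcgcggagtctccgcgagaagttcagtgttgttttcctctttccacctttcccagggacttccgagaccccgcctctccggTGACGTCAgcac
Plk2 (plus strand, chr13:110394844-110395043): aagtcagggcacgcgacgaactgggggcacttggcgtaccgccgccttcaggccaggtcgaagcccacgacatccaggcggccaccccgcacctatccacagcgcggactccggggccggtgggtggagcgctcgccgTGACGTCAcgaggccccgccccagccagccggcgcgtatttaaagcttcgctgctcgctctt
Dusp1 (minus strand, chr17:26508473-26508672): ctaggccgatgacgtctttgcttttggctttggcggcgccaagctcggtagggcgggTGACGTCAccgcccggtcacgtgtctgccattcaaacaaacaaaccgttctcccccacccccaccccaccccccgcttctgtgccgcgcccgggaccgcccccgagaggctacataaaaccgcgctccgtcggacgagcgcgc
Btg2 (minus strand, chr1:134079156-134079355): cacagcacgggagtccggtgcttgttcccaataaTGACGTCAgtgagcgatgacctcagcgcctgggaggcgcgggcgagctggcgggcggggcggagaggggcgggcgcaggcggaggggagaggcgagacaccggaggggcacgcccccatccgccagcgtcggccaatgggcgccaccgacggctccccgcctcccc
Zfp36 (minus strand, chr7:28379229-28379428): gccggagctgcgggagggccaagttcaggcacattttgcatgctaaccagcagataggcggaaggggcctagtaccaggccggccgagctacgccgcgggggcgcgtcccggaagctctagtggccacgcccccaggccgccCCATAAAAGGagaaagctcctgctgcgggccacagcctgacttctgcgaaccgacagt
The element began 12 bases before the start site in Ppp1r15a, 62 in Plk2, 143 in Dusp1 and 166 in Btg2, and the CArG box began 58 bases before it in Zfp36. A match is a description of the letters and not a measured binding site.

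The next comparison asked whether mice with a history of HSD differed from ND mice after ICH. The members were again mostly lower on HSD, but the libraries were more variable and no member passed an adjusted p. By limma, 13 of 42 members had an unadjusted p under 0.05 and were lower, and 0 were higher, against 10.2% lower and 5.42% higher of 20079 genes tested. edgeR's quasi-likelihood test gave 10 lower and 1 higher, and DESeq2 9 lower and 1 higher. Of all genes, 9.5% were lower and 6.64% higher by edgeR, and 6.43% and 6.3% by DESeq2. At an adjusted p under 0.05 there were 0 members by all 3 tools. Over all genes the adjusted calls numbered 0 by limma, 0 by edgeR and 98 by DESeq2. The groups did not overlap, with HSD ICH lower, for 9 members, against 13.3% of all genes. The median log2 fold change was −0.31, against −0.03 over all genes tested.

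**Figure D3:**
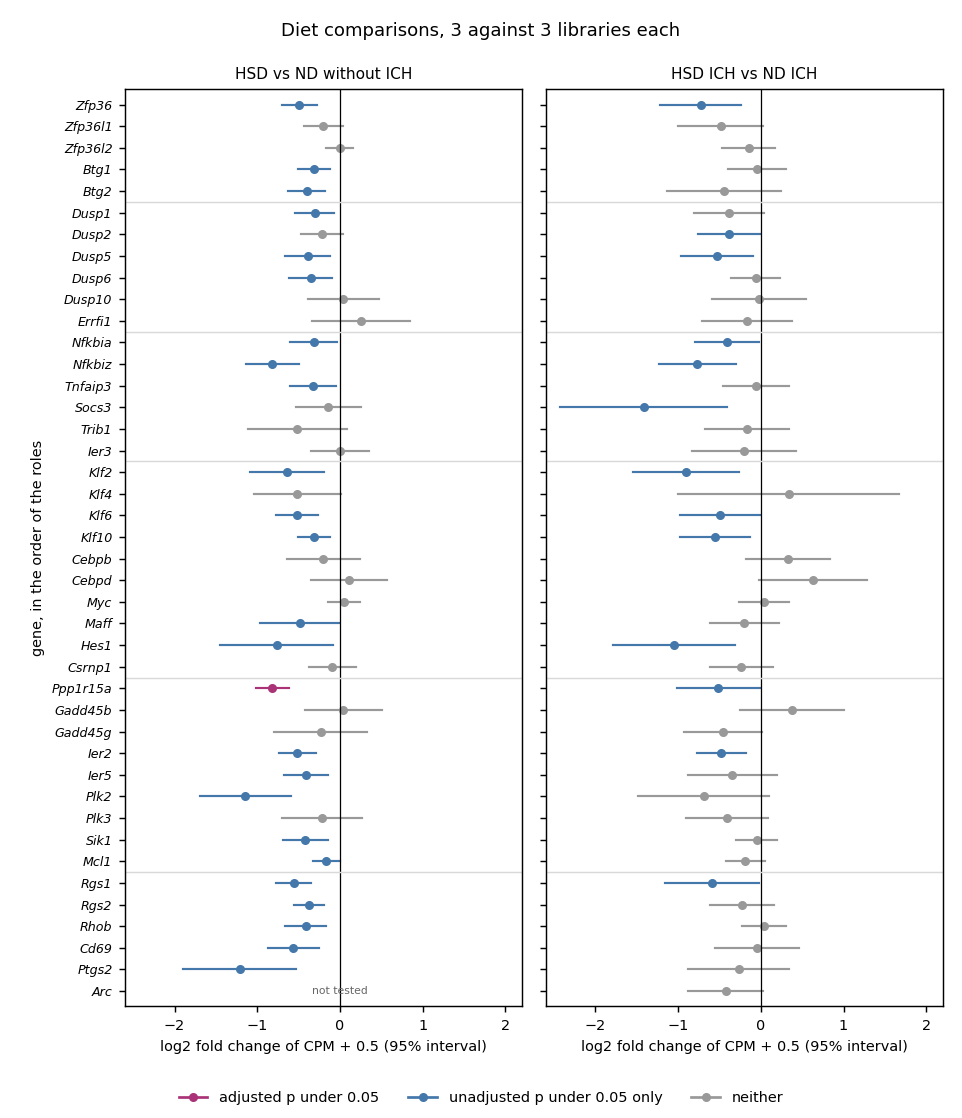
Log2 fold change on the log2(CPM + 0.5) scale (points) with 95% intervals (lines) for each member in HSD against ND without ICH (left) and HSD ICH against ND ICH (right), 3 against 3 libraries, in the order of the roles. Most points lie left of 0 in both panels, and the intervals on the right are wider.

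Nfkbiz had the smallest p here. It was at 34.7, 41.4 and 42.1 CPM in ND ICH and 30.3, 24.5 and 16.0 CPM in HSD ICH (log2 fold change −0.77, SE 0.208, adjusted p = 0.255, limma). Ier2 was at 58.6, 72.5 and 56.8 CPM in ND ICH and 48.4, 39.5 and 46.3 CPM in HSD ICH (−0.48, SE 0.131). No HSD ICH library reached the ND ICH range in either gene. Zfp36 was at 65.9, 65.1 and 52.1 CPM in ND ICH and 53.6, 28.8 and 31.4 CPM in HSD ICH (−0.73, SE 0.216), and the groups overlapped because HSD ICH replicate 1 was above ND ICH replicate 3. Klf2 was at 11.04, 9.08 and 8.52 CPM in ND ICH and 7.92, 3.10 and 4.52 CPM in HSD ICH (−0.90, SE 0.285). Hes1, at 13 to 22 reads in ND ICH and 13, 1 and 5 reads in HSD ICH, had a log2 fold change of −1.05 (SE 0.329).

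Socs3 had the widest fold change, and much of it came with 1 library. It was at 5.52, 6.87 and 24.4 CPM in ND ICH and 3.35, 3.70 and 3.11 CPM in HSD ICH, while ND and HSD libraries without ICH lay between 4.58 and 6.33 CPM. The high value was that of ND ICH replicate 3, and the log2 fold change of −1.42 (SE 0.448) had a 95% interval from −2.42 to −0.41. Without that library it was −0.78, still at an unadjusted p under 0.05.

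Klf10, Dusp5, Nfkbia, Rgs1, Dusp2, Ppp1r15a and Klf6 were the remaining members lower at an unadjusted p under 0.05. Ppp1r15a, at 34.7, 28.6 and 26.1 CPM in ND ICH and 30.3, 17.1 and 16.7 CPM in HSD ICH, was lower by limma, with −0.52 as its log2 fold change (SE 0.223, adjusted p = 0.311). HSD ICH replicate 1 again lay in the ND ICH range. Of the 25 members lower without ICH, 11 were also among the 13 lower after ICH, and Dusp2 and Socs3 passed after ICH alone. Of all 16687 genes tested in both, 543 were lower without ICH, 1066 after ICH and 155 in both, which is 28.5% of the first and 14.5% of the second. Both comparisons rest on separate libraries. HSPC markers leaned lower here, with negative fold changes in 10 of 12, 4 of them at an unadjusted p under 0.05, and negative fold changes were seen in 12 of 13 macrophage markers (median −0.48), 7 of 7 endothelial and stromal markers (−0.42) and 6 of 8 erythroid markers (−0.51), of which 0, 1 and 1 passed. The part of these lists in the members' differences was not tested. The count of lower members was 8 without ND ICH replicate 1 or without ND ICH replicate 2, 17 without HSD ICH replicate 1 and 9 without HSD ICH replicate 3, the library low in HSPC markers. It was 8 with RLE scaling, and 6 of 26 with the filter of CPM above 10 in at least 3 libraries. Of all genes, 6.85%, 6.50%, 13.3% and 6.34% were lower with those libraries left out, in that order. The share was 9.05% with RLE scaling and 3.69% with that filter.

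Whether the diet difference itself changed with ICH was tested as an interaction in a fit of all 12 libraries. HSD ICH mice were back on ND, so a change with ICH cannot be told apart from one with the return to ND. No member passed an adjusted p under 0.05 by limma, and by edgeR and DESeq2 the number was also 0. At an unadjusted p under 0.05, 1 member had a more negative diet difference after ICH (6.13% of 20393 genes tested) and 2 a more positive difference (2.22%). Rhob was lower in HSD than in ND without ICH but was at 42.3, 42.2 and 45.3 CPM in ND ICH and 42.6, 40.5 and 51.1 CPM in HSD ICH (difference of log2 fold changes 0.46, SE 0.168, adjusted p = 0.540, limma). Ptgs2, on 0 to 20 reads per library, gave 0.94 (SE 0.379) and did not pass with edgeR or DESeq2. Socs3 gave −1.28 (SE 0.536), and −0.64 without ND ICH replicate 3. With each of the 12 libraries left out in turn, an unadjusted p under 0.05 remained in all 12 fits for Rhob and in 7 each for Ptgs2 and Socs3. Sik1 (0.37), Cd69 (0.51) and Dusp6 (0.29) followed without passing. For Ppp1r15a the difference was 0.30 with a 95% interval from −0.26 to 0.86.

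**Figure D4:**
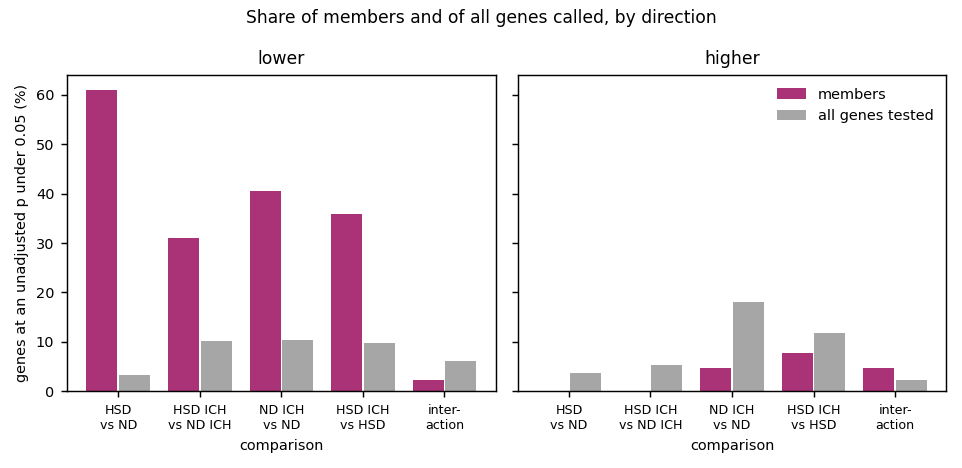
Share of members (purple) and of all genes tested (grey) with an unadjusted p under 0.05 by limma that were lower (left) or higher (right), in percent, for the 4 pairwise comparisons and the interaction. In HSD against ND the share of lower members is 61.0% against 3.28% of all genes, and no member is higher.

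On ND, many members were also lower after ICH. In ND ICH against ND, 12 members were lower and 1 higher at an adjusted p under 0.05 by limma, against 3.23% lower and 13.5% higher of 19387 genes tested. With the unadjusted threshold of 0.05, 17 were lower and 2 higher, against 10.3% and 18.1%. The median log2 fold change of the 42 members was −0.28, against 0.01 over all genes tested. This comparison shares its ND libraries with that of HSD and ND.

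The members past the adjusted threshold in the lower direction were Dusp2, Zfp36l1, Sik1, Ier5, Nfkbiz, Ppp1r15a, Dusp5, Zfp36, Dusp6, Dusp1, Klf6 and Plk2. Dusp2, a nuclear MAP kinase phosphatase of blood cells, was at 43.9, 40.8 and 41.1 CPM in ND and 30.9, 27.2 and 30.9 CPM in ND ICH (log2 fold change −0.49, SE 0.0891, adjusted p = 0.00279, limma). Zfp36l1 was at 32.8, 30.8 and 35.7 CPM in ND and 22.8, 23.7 and 19.5 CPM in ND ICH (−0.58, SE 0.107, adjusted p = 0.00320). Sik1 was at 50.4, 66.1 and 64.9 CPM in ND and 39.0, 34.3 and 41.3 CPM in ND ICH (−0.65, SE 0.119, adjusted p = 0.00323). The ND ICH libraries were all below the ND libraries in these 3 genes. Ier5 was at 19.7, 21.9 and 24.2 CPM in ND and 15.2, 13.97 and 12.99 CPM in ND ICH (−0.62, SE 0.117). Of the 6 kinase feedback inhibitors, Dusp1, Dusp2, Dusp5 and Dusp6 had log2 fold changes from −0.47 to −0.51, with overlapping groups for Dusp1. Nfkbiz (−0.61), Ppp1r15a (−0.53), Zfp36 (−0.48), Klf6 (−0.48) and Plk2 (−0.73) completed the list, each with all ND ICH libraries below the ND libraries. Errfi1, at 0.770, 0.657 and 0.888 CPM in ND and 1.18, 1.13 and 1.10 CPM in ND ICH, was the other higher member at an unadjusted p under 0.05 (0.37, SE 0.165). Dusp2 and Sik1 passed with each library left out in turn, Zfp36l1, Ier5, Nfkbiz and Ppp1r15a in 5 of those 6 fits, Dusp5 in 3, Zfp36 and Dusp1 in 2, Klf6 and Dusp6 in 1 and Plk2 in 0. Plk2 did not pass with edgeR or DESeq2 either, nor with a pseudocount of 0.1, and Klf6 did not with RLE scaling or that pseudocount. The number of members past an adjusted p was 3 without ND ICH replicate 3, 6 without ND ICH replicate 1, 8 without ND ICH replicate 2 or ND replicate 2, 7 without ND replicate 3 and 3 in the fit of all 12 libraries. Over all genes the adjusted calls fell too, from 3245 to 264 without ND ICH replicate 3, 342 without replicate 1 and 424 without replicate 2, and to 2562 and 2637 without ND replicates 2 and 3.

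In HSD ICH against HSD, 1 member was lower and 1 higher at an adjusted p under 0.05 by limma, of 39 tested, against 1.26% lower and 5.31% higher of 18082 genes. With the unadjusted threshold of 0.05, 14 were lower and 3 higher, against 9.73% and 11.8%. The median log2 fold change of the members was −0.28, as on ND. The HSD ICH mice had been returned to ND, so ICH and that return cannot be told apart in this comparison. In the fit of all 12 libraries 8 members passed an adjusted p here and 3 on ND, the opposite order to the pairwise fits. Among all genes the order stayed the same: 1189 adjusted calls here and 3245 on ND in the pairwise fits, and 2047 and 2891 in the fit of all 12. Hes1, Ptgs2 and Arc had too few reads for the test. HSPC markers moved with the members, with negative fold changes in 10 of 12, 7 at an unadjusted p under 0.05 and 1 adjusted, a median of −0.49 and summed levels of 1690 to 1862 CPM in HSD and 1016 to 1530 CPM in HSD ICH. Endothelial and stromal markers were higher in 4 of 7 by the unadjusted threshold, 3 of them adjusted. The part of these lists was not tested. Klf10 fell from 37.7, 41.0 and 45.9 CPM in HSD to 26.0, 30.2 and 27.8 CPM in HSD ICH (log2 fold change −0.56, SE 0.115, adjusted p = 0.0209). Zfp36l1, Dusp1, Dusp2, Zfp36, Plk3 and Dusp5 followed, with log2 fold changes from −0.59 to −0.87 and no overlap between the groups. Rhob was at 36.9, 39.5 and 29.2 CPM in HSD and 42.6, 40.5 and 51.1 CPM in HSD ICH (0.35, SE 0.142), higher in every HSD ICH library. Gadd45b, a stress and demethylation cofactor, was at 3.38, 4.32 and 2.75 CPM in HSD and 5.33, 4.58 and 9.28 CPM in HSD ICH (0.75, SE 0.280), again without overlap. With 1 library left out at a time, each of the 2 adjusted calls, Klf10 and Cebpd, held only without HSD ICH replicate 3.

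Cebpd was the only member higher at an adjusted p under 0.05 in either ICH comparison. Positive fold changes were seen in 7 members on ND and 8 on HSD, with Gadd45b positive in both (0.41 and 0.75). Cebpd, a C/EBP factor of acute phase and myeloid responses, was higher after ICH on both diets. It was at 8.12, 6.71 and 5.01 CPM in ND and 10.1, 11.1 and 12.7 CPM in ND ICH (log2 fold change 0.75, SE 0.183, adjusted p = 0.0179, limma). On HSD it was at 7.24, 8.84 and 5.49 CPM, and in HSD ICH at 13.8, 13.01 and 31.0 CPM (1.27, SE 0.316, adjusted p = 0.0460). The adjusted p on ND did not pass without ND replicate 3 or without any 1 of the ND ICH libraries. With each library left out it ran from 0.00691 to 0.125. It also did not pass with the filter of CPM above 10 or in the fit of all 12 libraries. On HSD it did not pass with a pseudocount of 1, the filter of CPM above 10 or the replicate block. Every ICH library was above every library without ICH. The highest value was that of HSD ICH replicate 3, the library low in HSPC markers, which also had the highest Klf4 (19.0 CPM), Cebpb (27.0 CPM) and Gadd45b (9.28 CPM). Mature neutrophil markers had positive fold changes in HSD ICH against HSD in 10 of 10 tested, 7 at an unadjusted p under 0.05 and 3 at an adjusted p under 0.05, with summed levels of 38.1 to 43.5 CPM in HSD and 70.0 to 78.9 CPM in HSD ICH. In ND they summed to 37.0 to 103 CPM and in ND ICH to 45.3 to 74.5 CPM. Their part in the Cebpd difference was not tested. Cebpd shares 562 exon bases with the antisense gene Spidr.

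**Figure D5:**
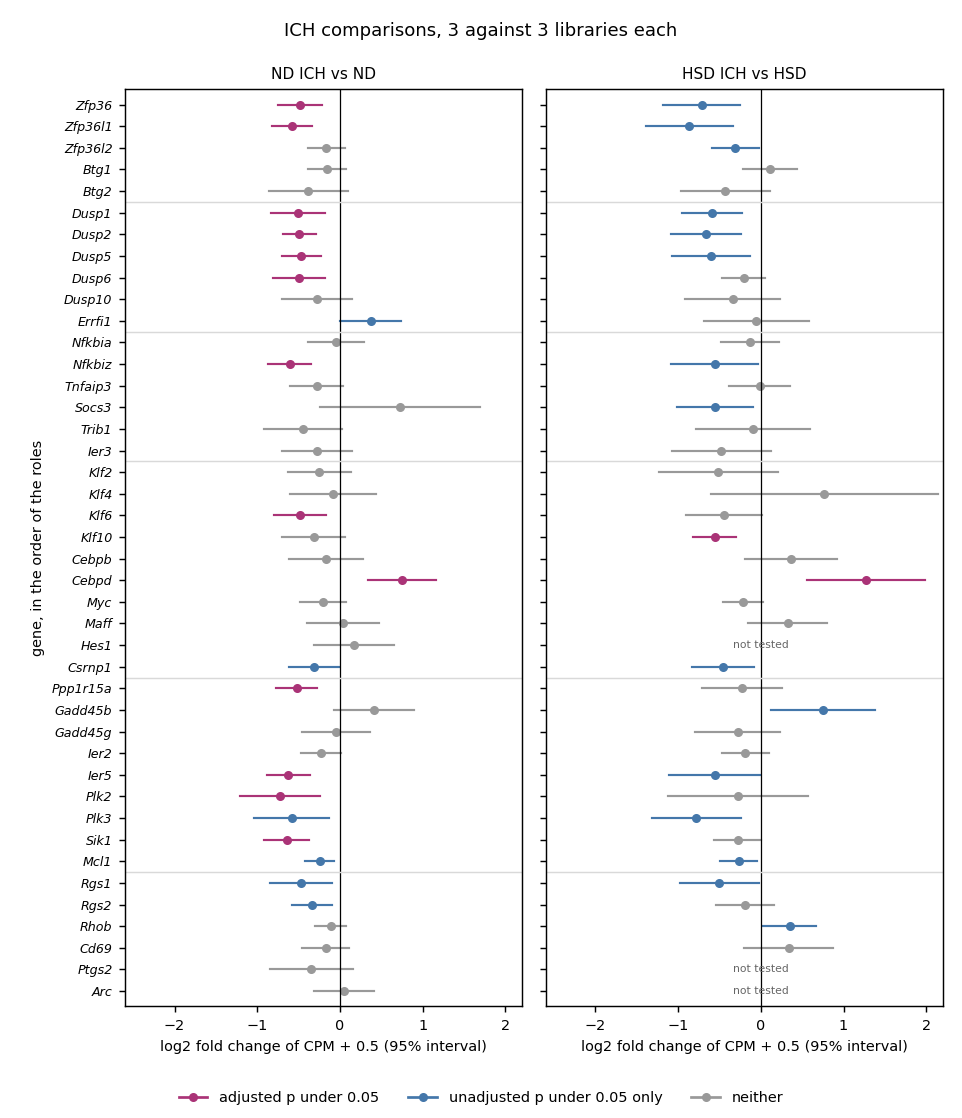
Log2 fold change on the log2(CPM + 0.5) scale (points) with 95% intervals (lines) for each member in ND ICH against ND (left) and HSD ICH against HSD (right), 3 against 3 libraries. Cebpd is to the right of 0 in both panels (0.75 and 1.27), and most other members are to the left.

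The ICH comparisons share no libraries with each other. Of the 19 members past an unadjusted p on ND and the 17 on HSD, 12 were in both: Cebpd was higher, and Zfp36, Zfp36l1, Dusp1, Dusp2, Dusp5, Nfkbiz, Csrnp1, Ier5, Plk3, Mcl1 and Rgs1 were lower. Of 17822 genes tested in both, 783 were lower in both, 39.5% of those lower on ND and 44.5% of those lower on HSD, and 1318 were higher in both. Heat shock genes, which cells also induce under stress, moved in the same direction on ND. All 10 tested had negative fold changes in ND ICH against ND, 7 at an unadjusted p under 0.05 and 6 at an adjusted p under 0.05 by limma, with a median log2 fold change of −0.59, and in HSD ICH against HSD 8 of 10 were negative and 1 passed. Endothelial and stromal markers were higher in 6 of 7 in ND ICH at an adjusted p under 0.05. Their summed levels were 69.2 to 74.1 CPM in ND and 87.2 to 95.4 CPM in ND ICH. Negative fold changes were seen in 13 of 13 macrophage markers in both ICH comparisons, 4 at an unadjusted p under 0.05 on ND and 0 on HSD. ND replicate 1 and HSD replicate 2 had the largest macrophage sums. Apart from them, these sums ran from 130 to 165 CPM on ND and from 97.2 to 125 on HSD. The ICH libraries spanned a similar range, 99.4 to 170 for ND ICH and 60.6 to 167 for HSD ICH. The part of these lists in the members' differences was not tested. Without ICH the median log2 fold change of heat shock genes between HSD and ND was −0.06, with 1 lower at an unadjusted p under 0.05.

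The NR4A, EGR and AP-1 genes were also mostly lower in HSD without ICH, and few genes of the kinase, NF-kB and deadenylase lists were. Of 12 tested NR4A, EGR and AP-1 genes, 9 were lower and 0 higher in HSD without ICH by the same limma threshold, with a median log2 fold change of −0.58 and 3 past an adjusted p. Of 21 kinases and factors upstream of immediate early genes, 1 was lower and 1 higher, with a median of −0.01. The lower gene was Crem (−0.64), which is itself inducible through cAMP, and the higher was Mapk3 (0.33), which encodes ERK1. Of 12 core NF-kB genes, 1 was lower (Rel, −0.33), of 13 genes of the CCR4-NOT deadenylase and TOB proteins 0 were, and of 5 other dual-specificity phosphatases 0 were. Of 10 other KLF genes, 2 were lower, Klf11 (−0.70) and Klf13 (−0.22). In ND ICH against ND, 8 of 12 NR4A, EGR and AP-1 genes were lower by that limma threshold. So were 7 of 21 upstream kinases and factors, 3 of 12 core NF-kB genes and 6 of 13 deadenylase and TOB genes. In each of these lists 0 were higher. In HSD ICH against HSD, 4 of 11, 2 of 21, 2 of 12 and 2 of 13 were lower, in that order. There 1, 3, 0 and 0 were higher. Mean expression differs between these lists, and the difference between lists was not tested.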

How the data were processed

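HSPC libraries were made with a stranded SMART-Seq kit. Per the study's methods, reads were aligned to mm10 with Rsubread, counted per gene with featureCounts and scaled by the trimmed mean of M values in edgeR 3.24.3. The authors deposited 1 table of CPM per library. Dividing each deposited CPM by the value of a lone read gave whole reads (tolerance 0.01). This is less certain for HSD replicate 2, whose step lies near 0.1. The deposited gene list does not follow the filter the methods state: 10084 of 20792 genes exceeded 10 CPM in at least 3 libraries.

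Here a gene was tested when 3 or more of the compared libraries held 10 or more of its reads, with limma 3.58.1 on log2(CPM + 0.5) with a variance trend, two-sided, with Benjamini-Hochberg adjustment over all genes tested. Fold changes are on that scale, which understates changes of low genes. Pairwise comparisons used 6 libraries and the interaction all 12. Alternatives were pseudocounts of 0.1 and 1, other filters, RLE scaling, edgeR 4.0.16 quasi-likelihood and DESeq2 1.42.0 tests on the recovered reads, a fit of all 12 libraries, a replicate block, and libraries left out. The fits were also run on simulated data, with no outcome given here. Members, roles, comparison lists and tests were chosen with earlier results of these data known. Per-library values were to be given for members past an adjusted p in any comparison and for those with the smallest p in each (12 without ICH, 6 after ICH and in the interaction, 3 per direction in each ICH comparison); others are described more briefly. Gene lengths and overlaps come from GENCODE M21 (GRCm38). Replicate numbers were not treated as pairs: deviations of same-numbered libraries correlated from −0.19 to 0.08.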

Additional observations from a re-analysis of the deposited data

How the results depend on the processing

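No member that passed an unadjusted p under 0.05 changed direction under any alternative run. Values that moved were counts and, in HSD ICH against ND ICH and in the interaction, medians, as follows. In HSD against ND without ICH, members past an adjusted p numbered 6 with DESeq2, 0 in the fit of all 12 libraries, 10 without both ND replicate 1 and HSD replicate 2, and 1 to 3 with each library left out. Adjusted calls over all genes numbered 65, 0, 91 and 8 to 22, in that order. In HSD ICH against ND ICH, lower members numbered 6 with the filter of the study and 8 with RLE scaling, and 8 to 17 with each library left out. Lower genes overall made up 3.69%, 9.05% and 6.11% to 13.3% of those tested. Higher members there numbered 1 with edgeR, DESeq2 or the fit of all 12 libraries, 2 with the replicate block and 0 to 3 with each library left out, and the median log2 fold change ran from −0.45 to −0.23. The share of all genes that was higher was 6.64%, 6.30%, 8.52%, 5.10% and 3.23% to 6.31%, in that order. In ND ICH against ND, higher members numbered 1 with a pseudocount of 0.1, no filter, the filter of the study, DESeq2 or the fit of all 12 libraries, and 1 to 3 with each library left out. Among all genes 17.7%, 20.7%, 3.40%, 16.5%, 16.6% and 7.28% to 18.0% were higher, in that order. Members past an adjusted p there numbered 4 with the filter of the study, 3 in the fit of all 12 libraries and 3 to 12 with each library left out. All adjusted calls numbered 116, 2891 and 264 to 2995. In HSD ICH against HSD, members past an adjusted p numbered 1 with a pseudocount of 1, 5 with no filter, 0 with the filter of the study, 4 with DESeq2, 4 with the replicate block, 8 in the fit of all 12 libraries, 4 without both HSD replicate 2 and HSD ICH replicate 3 (chosen after seeing the data) and 0 to 2 with each library left out. The adjusted calls over all genes numbered 1116, 2384, 44, 1432, 1081, 2047, 796 and 56 to 671, in that order. Lower members there ranged from 8 to 19 and higher from 1 to 6 with each library left out, against 5.71% to 9.52% and 6.20% to 10.7% of all genes. In the interaction, lower members numbered 0 and higher 1 with the filter of the study, higher members 1 with edgeR or DESeq2, and without ND replicate 1, HSD replicate 2 and HSD ICH replicate 3 (chosen after seeing the data) lower members numbered 0 and the median was 0.14. For all genes the filter of the study gave 2.07% lower and 2.85% higher, edgeR 2.95% and DESeq2 2.30% higher. Without those libraries 3.25% were lower. With each library left out, lower members ranged from 0 to 2, higher from 1 to 5 and the median from −0.157 to 0.0646. Shares of all genes ran from 4.19% to 9.17% lower and from 1.63% to 3.67% higher. The filter of the study leaves 26 to 28 members to test, which bounds its counts. The cause of the other changes was not tested.

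With the replicate number as a block, 24 members were lower in HSD against ND without ICH, 15 in HSD ICH against ND ICH, 20 in ND ICH against ND and 17 in HSD ICH against HSD at an unadjusted p under 0.05. The shares of all genes that were lower were 2.90%, 9.54%, 9.52% and 9.70%, in that order. The groups share only replicate numbers, so the block is no pairing of animals. For 13 members the mean was under 100 reads per library, so their values are less precise.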
